A study of Homo sapiens with 6 samples.

Results

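S100 proteins are small calcium-binding proteins, and 10 of their genes (S100A2, S100A4, S100A6, S100A8, S100A9, S100A10, S100A11, S100A13, S100A16 and S100P) were followed in K1 cells, a line derived from a papillary thyroid carcinoma. The genes were chosen by name and located by their symbol, 1 row for each of the 10 among 19684 Ensembl genes in the count tables. K1 cells were transfected with a negative control siRNA (NC, 3 libraries) or with an siRNA against NEAT1_2, the long transcript of the non-coding RNA NEAT1 (si-NEAT1_2, 3 libraries), and polyadenylated RNA was sequenced. Both groups therefore carried an siRNA, and the cell line was the same in all 6 libraries. The extent of the knockdown was not analysed here, and the labels do not say whether libraries of a group came from separate cultures, so p-values measure the spread between these libraries, which may be technical. A further table gave 1 expected count and 1 FPKM value for each group, where FPKM is a fragment count scaled for transcript length and library size.

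S100 proteins form dimers, and each chain carries a pair of helix-loop-helix calcium-binding motifs called EF-hands. When calcium binds the C-terminal loop, the chain opens a surface that grips partner proteins such as annexins, myosin or p53, and some members are also secreted and act on receptors of neighbouring cells. Several S100 genes are expressed at raised levels in carcinomas, papillary thyroid carcinoma among them, and the genes of S100A8 and S100A9 are best known from neutrophils and monocytes.

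In GRCh38, 9 of the 10 genes lie on chromosome 1, from 151982915 to 153631360, and S100P lies on chromosome 4 from 6693069 to 6697170. Without S100A10 and S100A11, the other 7 genes of chromosome 1 sit within 0.274 Mb. The C-terminal loop is shown for the 3 members whose loops are most alike, S100A2, S100A4 and S100A6, because a counter can misplace reads of near-identical genes, and for S100A16 and S100A10 to show how far other loops differ. Each sequence has 36 bases, 12 codons, of coding sequence from GENCODE 29, with the codons of loop positions 1, 3, 5 and 12, whose side chains or backbone hold the calcium ion, in capitals.
S100A2 (chr1:153561511-153561546, minus strand): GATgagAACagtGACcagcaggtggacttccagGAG
S100A4 (chr1:153543843-153543878, minus strand): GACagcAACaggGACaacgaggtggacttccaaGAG
S100A6 (chr1:153534753-153534788, minus strand): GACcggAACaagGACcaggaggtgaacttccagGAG
S100A16 (chr1:153607612-153607647, minus strand): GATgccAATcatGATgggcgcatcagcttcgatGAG
S100A10 (chr1:151983244-151983279, minus strand): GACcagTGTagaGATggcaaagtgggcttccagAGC
The loops of S100A2 and S100A6 share 29 of 36 bases, as do those of S100A4 and S100A6, and these are the closest of the 45 pairs of loops. The search pattern required aspartate at position 1, so that all 10 loops begin with its codon is no finding. It allowed asparagine, aspartate or cysteine at position 3, and glutamate or serine at position 12. Within these limits an asparagine codon at position 3 and a glutamate codon at position 12 were found in 9 of 10. The exception at both positions is S100A10, which is known to hold its open form without calcium. All counts of the 10 genes were whole numbers in all 6 libraries. Exons of S100A13 overlap those of S100A1 on the opposite strand over 235 bases and those of AL162258.1 on the same strand over 536 bases. S100A6 overlaps an antisense gene over 23 bases. The counts of these genes are uncertain to that extent. Strand use in counting is not stated, and strand could not separate reads of the overlap on the same strand.

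Total expected counts ranged from 22798631 to 27066025 per library. The library si-NEAT1_2 replicate 2 stood apart from the others by a trend with transcript length, described with the fold changes, and it had the lowest normalization factor (0.927, against up to 1.04) and the highest FPKM sum (645228, against 529277 to 576358 in the others). Of the thyroid markers, PAX8, a thyroid transcription factor, was at 113 to 169 FPKM and FOXE1 at 5.75 to 8.78, while TSHR, NKX2-1 and SLC5A5 did not exceed 0.08. Of the epithelial markers, KRT8 was at 1149 to 1586 FPKM and KRT18 at 391 to 579, whereas KRT19 and CDH1 stayed below 1. The 7 myeloid markers, with PTPRC and LYZ among them, summed to 0.30 to 0.52 FPKM per library and none passed the filter on low counts. Of the 6 fibroblast markers, which summed to 19.6 to 29.8 FPKM, LUM made up most, at 16.2 FPKM or more.

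The S100 genes of K1 cells fell into 3 tiers. S100A11, S100A16, S100A6, S100A10, S100A13 and S100A2 were abundant, with mean levels of 274 to 1049 FPKM in NC cells, S100A4 was near 1 FPKM, and S100A8, S100A9 and S100P were at or near 0. In order of the NC mean the levels ran S100A11, S100A16, S100A6, S100A10, S100A13, S100A2 and S100A4. Of neighbours in this order, S100A11 and S100A16, S100A10 and S100A13, and S100A2 and S100A4 had separate FPKM ranges within both groups, and the ranges of the other neighbours overlapped. S100A13 exceeded S100A2 in 2 of the 6 libraries, so the order of these genes did not hold beyond their spread. Together the 10 genes took 0.203% to 0.256% of the counts of the NC libraries and 0.258% to 0.332% of those of the si-NEAT1_2 libraries.

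**Figure D1:**
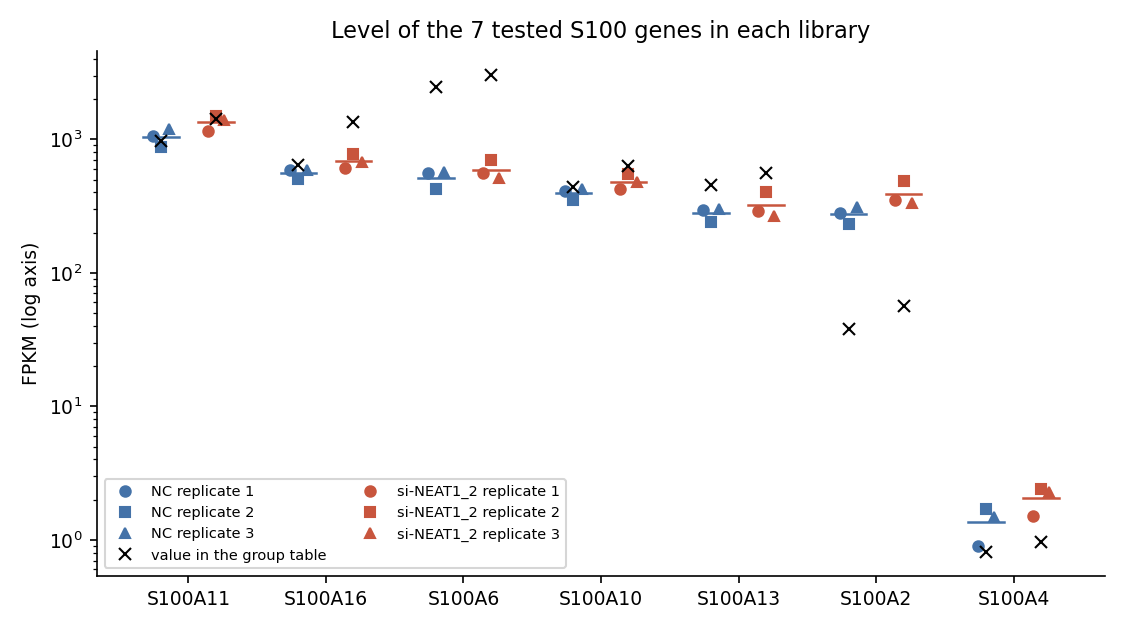
FPKM (log axis) of the 7 S100 genes that passed the filter, with 1 symbol for each library, a line at the mean of each group, and crosses for the values of the group table. The 6 abundant genes lie within 231.82 and 1503.98 FPKM in the libraries, and S100A4 lies between 0.90 and 2.40. Both crosses of S100A2, S100A6 and S100A13 fall outside the values of all 6 libraries. So do the si-NEAT1_2 crosses of S100A10 and S100A16 and the NC cross of S100A4.

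Among genes whose products bind annexins, S100A11, the partner of annexin A1, was at 1064, 883 and 1201 FPKM in NC replicates 1, 2 and 3 and at 1162, 1504 and 1393 in the si-NEAT1_2 replicates. NC replicate 2 was lowest and si-NEAT1_2 replicate 2 highest, and the groups overlapped. S100A10, the light chain that binds annexin A2 at the plasma membrane, was at 411, 352 and 427 FPKM in NC and at 422, 548 and 477 in si-NEAT1_2. On counts scaled by library size and normalization factor (CPM) the groups of S100A10 did not overlap, although NC replicates 1 and 3 lay close to si-NEAT1_2 replicate 1. S100A6 (calcyclin), which binds annexins and the calcyclin-binding protein CACYBP, was at 557, 424 and 568 FPKM in NC and at 555, 704 and 513 in si-NEAT1_2. Apart from the low NC replicate 2 and the high si-NEAT1_2 replicate 2, the other libraries of both groups lay between 513 and 568 FPKM.

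S100A16, a widely expressed member, was at 594, 503 and 590 FPKM in NC and at 608, 780 and 681 in si-NEAT1_2. All 3 si-NEAT1_2 libraries exceeded the NC libraries, si-NEAT1_2 replicate 1 by the least. S100A13, which takes part in the release of FGF1 and interleukin 1 alpha, factors that leave cells without a signal peptide, was at 295, 240 and 300 FPKM in NC and at 291, 404 and 267 in si-NEAT1_2. Only si-NEAT1_2 replicate 2 lay above the NC libraries. S100A2, an epithelial member that binds p53, was at 282, 232 and 309 FPKM in NC and at 348, 488 and 332 in si-NEAT1_2. Its groups did not overlap, and the gap between the highest NC and the lowest si-NEAT1_2 library was small beside the spread within each group.

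S100A4 (metastasin), which binds non-muscle myosin heavy chain and is known for its link to metastasis, had only 14, 22 and 22 reads in NC and 21, 36 and 33 in si-NEAT1_2. These correspond to 1.36 ± 0.41 and 2.06 ± 0.49 FPKM (mean ± SD, n = 3 each), and the groups overlapped. S100A9, with S100A8 a subunit of calprotectin, had 1, 2 and 1 reads in NC and 2, 0 and 2 in si-NEAT1_2, and S100P, a placental and tumour-associated member, had 1 read in all, in NC replicate 3. S100A8 was at 0 in all 6 libraries, which allows up to 0.111 to 0.132 CPM (3 counts per library, counting error only). No difference of S100A8, S100A9 or S100P was detectable at this depth.

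The comparison of the groups asked whether S100 transcripts differed after transfection with si-NEAT1_2. Counts were compared by edgeR's quasi-likelihood test over 12581 genes, with p-values adjusted by the method of Benjamini and Hochberg, and 7 of the 10 S100 genes passed the filter. A gene was called where it changed 2-fold or more with an adjusted p under 0.05. None of the 7 was called, and 0% of all genes tested were; the lowest adjusted p of any gene was 0.0675. By edgeR's quasi-likelihood test 1419 of all genes were higher and 1663 lower at an unadjusted p under 0.05, and DESeq2 called 24 genes higher and 47 lower, none of them an S100 gene.

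All 7 genes had a positive log2 fold change, from 0.26 to 0.68 with a median of 0.36, as did 50.8% of all genes tested, whose median was 0.01. S100A2 differed by 0.52 (SE 0.18) on the log2 scale, with an adjusted p of 0.169 by edgeR's quasi-likelihood test. For S100A11 the difference was 0.43 (SE 0.17, adjusted p = 0.176) and for S100A16 it was 0.36 (SE 0.15, adjusted p = 0.190). These 3 genes had an unadjusted p under 0.05, against 11.3% of all genes in this direction. Among genes with a median transcript length below 700 bases, such as S100A2 and S100A11, the share was 30.9%. It was 23.4% among genes of 1000 to 1500 bases, such as S100A16. With the replicate number as a block 0 of the 7 genes had an unadjusted p under 0.05, at a median log2 fold change of 0.35. Over all 12581 genes, 593 were higher at that threshold with the block. S100A10 differed by 0.31 (SE 0.14), S100A13 by 0.28 (SE 0.19) and S100A6 by 0.26 (SE 0.18), with adjusted p-values of 0.213, 0.350 and 0.358. S100A4, the gene with few reads, had the highest value and the highest error, 0.68 (SE 0.42, adjusted p = 0.311).

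CPM ranges of the groups did not overlap for 3 of the 7 genes (S100A2, S100A10 and S100A16), each higher in si-NEAT1_2, against 15.7% of all genes. In a two-sided exact permutation test of the CPM means these 3 had p = 0.10, the smallest p that 3 libraries against 3 allow. Ranges that do not overlap always give this value, so the test adds nothing to the ranges. All 7 genes were highest in si-NEAT1_2 replicate 2. Without that library the median log2 fold change was 0.21, against 0.36 with all libraries, with S100A2 at 0.27, S100A6 at 0.06 and S100A13 at 0.02. Without si-NEAT1_2 replicate 1, 43 genes were called higher and 292 lower by edgeR's quasi-likelihood test, none of them an S100 gene, and the lowest adjusted p among the 7 was 0.0582 for S100A11.

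**Figure D2:**
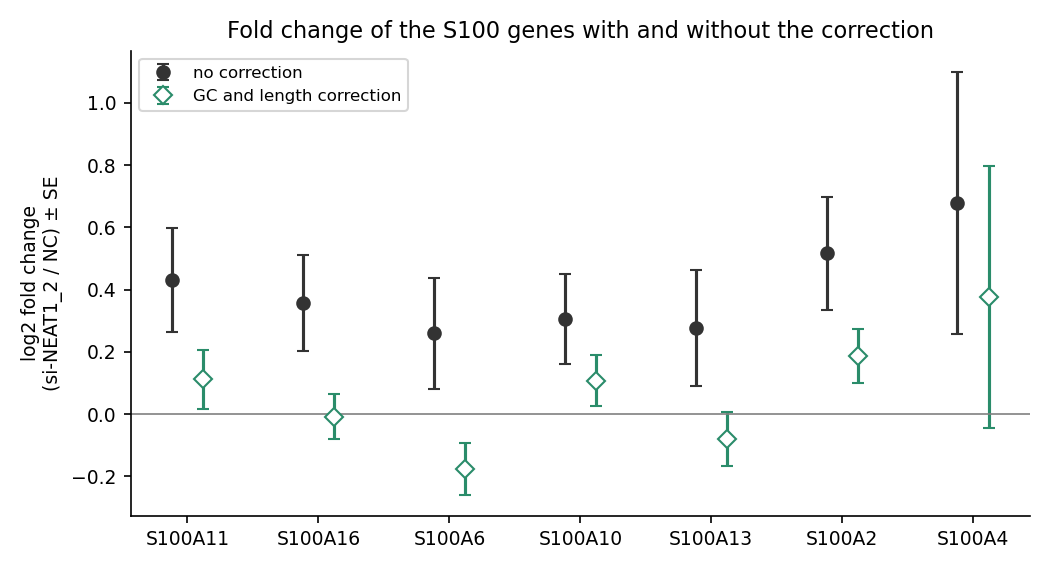
Log2 fold change (si-NEAT1_2 over NC) of the 7 S100 genes by edgeR's quasi-likelihood fit, with bars of 1 standard error, without a correction (filled circles) and with the correction for GC content and transcript length (open diamonds). All 7 circles lie above 0, from 0.26 to 0.68, while the diamonds run from -0.18 to 0.38 and 3 of them lie below 0.

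S100 transcripts are short. The 7 genes tested had median transcript lengths of 563 to 1037 bases, against a median of 2592 bases over all genes tested, of which 8.91% were no longer than S100A16, the longest of the 7. Over all genes the log2 fold change moved with length. The median was 0.33 for the 317 genes below 700 bases and 0.31 for genes of 700 to 1000 bases, it was 0.05 for genes of 2000 to 3000 bases, and it was -0.30 for genes of 5000 bases or more. Of the genes below 700 bases 80.8% had a positive fold change, and of those of 5000 bases or more 18.1% did. The S100 genes of that shortest bin, S100A2, S100A4, S100A6, S100A11 and S100A13, lay on both sides of its median. The GC content of the 7 genes, 49.4% to 59.8%, was at or above the median of all genes (49.3%), and S100A6 had the highest.

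**Figure D3:**
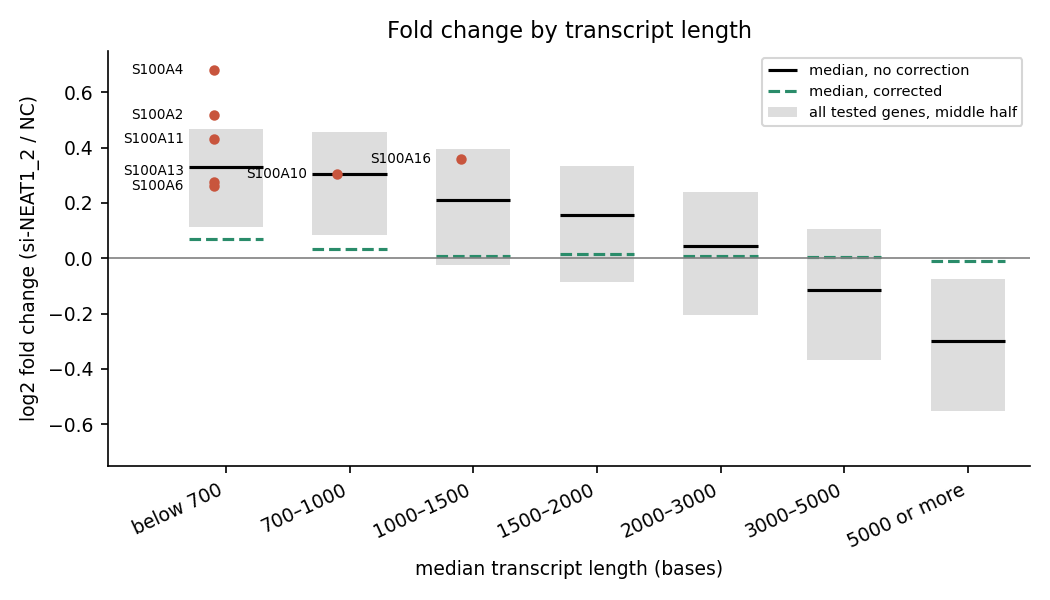
Log2 fold change (si-NEAT1_2 over NC) against median transcript length in 7 bins of all 12581 genes tested, with grey boxes for the middle 50% of genes, solid lines for the median and dashed lines for the median after the correction. The medians fall from 0.33 in the shortest bin to -0.30 in the longest and stay between -0.01 and 0.07 after the correction; 6 of the 7 S100 genes (points) lie in the 2 shortest bins.

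A correction for GC content and length was therefore fitted per library over all genes and removed before the test. Corrected log2 fold changes were 0.19 for S100A2 (SE 0.088), 0.11 for S100A11 (SE 0.094) and 0.11 for S100A10 (SE 0.081). They were -0.01 for S100A16 (SE 0.072), -0.08 for S100A13 (SE 0.087) and -0.18 for S100A6 (SE 0.082). S100A4 kept the highest value, 0.38 with an SE of 0.42. The differences between the uncorrected and the corrected values ranged from 0.20 for S100A10 to 0.44 for S100A6. The median of the 7 genes was 0.11, with 4 genes above 0 and 3 below, against 51.6% of all genes above 0.

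With the correction edgeR's quasi-likelihood test called none of the 7 genes, and of all 12581 genes it called 0 higher and 3 lower. The lowest adjusted p-values among the 7 were 0.327 for S100A6 and 0.328 for S100A2 by the same test. No S100 gene had an unadjusted p under 0.05, whereas 15.6% of all genes did. Corrected ranges of the groups did not overlap for 0 of the 7 genes, against 21% of all genes in either direction. Apart from S100A4, the standard errors were 0.144 to 0.187 without and 0.072 to 0.094 with the correction. S100A6 and S100A2, whose corrected values lay farthest from 0 after S100A4, had opposite signs. The length correction used the median length of annotated transcripts; with the length that counts and FPKM values of the files imply, chosen after the data were seen, S100A6 was at -0.22 (unadjusted p = 0.0153 and adjusted p = 0.222 by edgeR's quasi-likelihood test).

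Relative to the NC mean, the median log2 level of the 7 genes was 0.09, -0.20 and 0.16 in the NC replicates and 0.13, 0.67 and 0.27 in the si-NEAT1_2 replicates. In si-NEAT1_2 replicate 2 the median over all genes below 700 bases was 0.69 and that over genes of 5000 bases or more -0.64, so the S100 genes stood near the other short genes of that library. After the correction the medians of the 7 genes were 0.01, -0.03 and 0.05 in NC and -0.02, 0.07 and 0.06 in si-NEAT1_2. The labels carry a code from L2 to L4 for each library, whose meaning they do not give. Between libraries with the code L2 (2 NC, 1 si-NEAT1_2) the median difference was 0.69 with 7 of 7 genes higher. After the correction it was 0.06 with 6 of 7 higher. Between libraries with L3 (1 of each group) it was 0.20 with 5 of 7 higher, and 0.12 with 5 of 7 higher after the correction. L4 held only si-NEAT1_2 replicate 1.

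**Figure D4:**
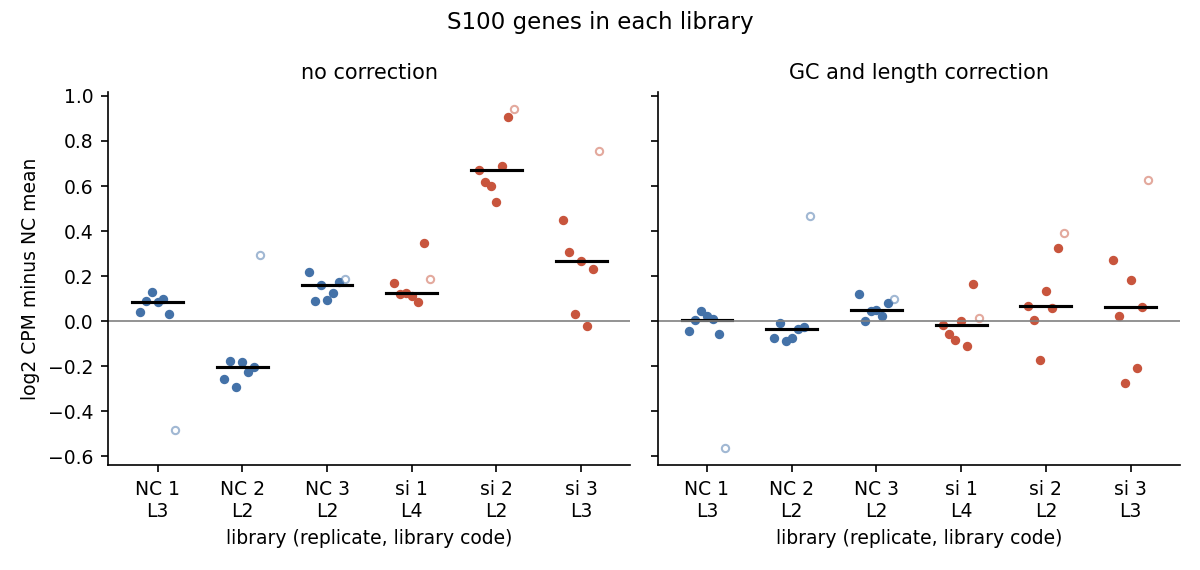
Log2 CPM of each of the 7 S100 genes minus its NC mean in the 6 libraries, without (left) and with (right) the correction for GC content and length; points are genes (S100A4, the gene with few reads, is open), bars are medians and codes below the axis are those of the labels. On the left the bar of si-NEAT1_2 replicate 2 is at 0.67 and that of NC replicate 2 at -0.20, and on the right all 6 bars lie between -0.03 and 0.07.

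Ratios between S100 genes within a library cancel what such genes share. Of 21 pairs of the 7 genes, 3 had log2 CPM ratios whose group ranges did not overlap, against 27.3% of all pairs of genes. The 7 genes are alike in length (563 to 1037 bases), whereas all pairs include short genes set against long ones. The shares are therefore not like for like, and pairs of similar length were not counted separately. S100A2 relative to S100A6 was at -0.60 ± 0.09 in NC and -0.35 ± 0.06 in si-NEAT1_2 (log2, mean ± SD, n = 3 each). Relative to S100A13 it was at 0.46 ± 0.06 and 0.70 ± 0.02. The third pair was S100A10 relative to S100A16, with a difference of -0.05 between the groups. On the FPKM scale, S100A2 was 0.506 to 0.546 times S100A6 in the NC libraries and 0.627 to 0.693 times in the si-NEAT1_2 libraries.

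The group table carries the names of the same 2 conditions, and its FPKM values above 0 were all multiples of 1/300, as means of 3 values with 2 decimals are. A mean of the 3 libraries deposited cannot lie outside them, yet the NC value lay outside the range of the NC libraries for 6 of the 7 genes (4 above, 2 below), as it did for 85.8% of all genes. S100A2 stood at 37.9 FPKM in the NC column, 7.22 times lower than the NC library mean. S100A6 stood at 2473 FPKM, 4.79 times higher. These were the S100 genes at least 2-fold apart in either direction (pseudocount 1), as were 23.1% of all genes. S100A6 made up 45.3% of the S100 counts in the NC column and 38.4% in the si-NEAT1_2 column, against 12.4% to 15.2% in the libraries, and S100A2 was 0.0153 and 0.0183 times S100A6 in FPKM. The group columns therefore were not means of these 6 libraries.

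Within the group table all 7 S100 genes were higher in the si-NEAT1_2 column, against 34.5% of all genes. The FPKM ratio of si-NEAT1_2 to NC was 2.07 for S100A16 (1338 against 645 FPKM), 1.48 for S100A2 (56.0 against 37.9) and 1.47 for S100A11 (1421 against 968). It was 1.44 for S100A10, 1.23 for S100A6, 1.22 for S100A13 and 1.18 for S100A4. S100A16 was the only member at 2-fold or more among the 7, against 4.49% of all genes. With a pseudocount of 1 the median log2 ratio of the 7 genes was 0.53, and that of all genes was -0.15. Median ratios by length ran from -0.01 below 700 bases to -0.20 at 5000 bases or more, a narrower span than in the libraries (0.25 to -0.24 on the same scale). The table has 1 FPKM value per group, so no error was computed and no test was run here. The authors' fold changes and p-values in it were not used. S100A8 was at 0 in both columns.

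**Figure D5:**
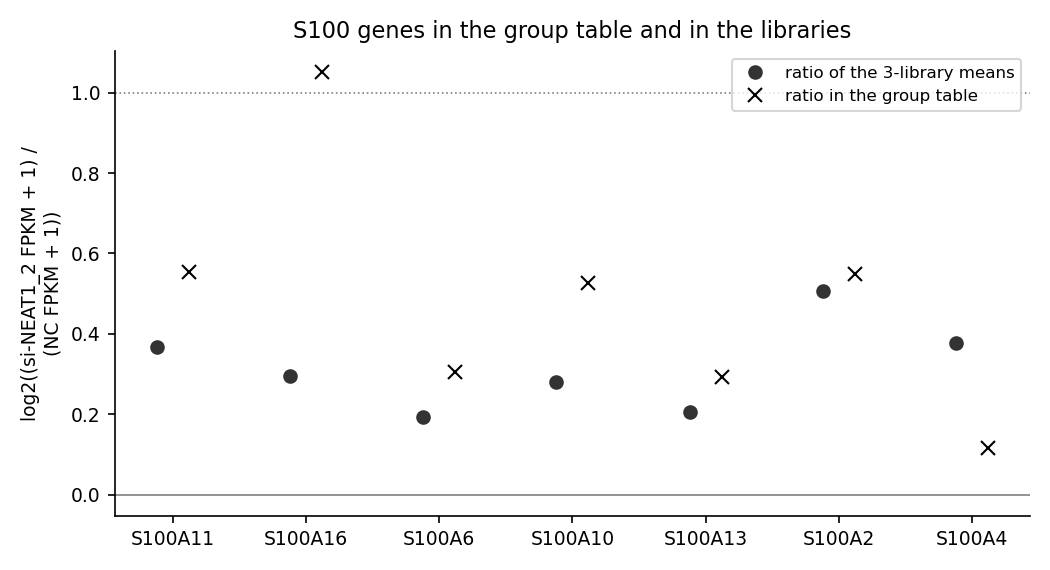
Log2 ratio of si-NEAT1_2 to NC FPKM with a pseudocount of 1 for the 7 S100 genes, from the means of the 3 libraries (circles) and from the group table (crosses); the dotted line marks 2-fold. All values lie above 0, S100A16 is at 0.29 in the libraries and 1.05 in the group table, and S100A2 is at 0.51 and 0.55.

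A list of 19 related genes held further S100 genes, the fused S100 proteins of the epidermis and S100PBP, the S100P-binding protein. Of these 19 genes, 6 passed the filter, none was called, and 5 were at 0 in every library. S100A3 differed by 0.55 (SE 0.28) on the log2 scale and S100A1 by 0.17 (SE 0.21), and with the correction they were at 0.09 and -0.24. S100PBP was at -0.11 (SE 0.14) without and 0.17 (SE 0.14) with the correction. HRNR and TCHH, both below 0.15 FPKM, were at -0.35 and -0.34, and at -0.23 and -0.26 with the correction. FLG (filaggrin), a structural protein of the outer epidermis, was at 26.9, 47.7 and 31.6 FPKM in NC and at 18.7, 5.68 and 24.3 in si-NEAT1_2. It was lowest in si-NEAT1_2 replicate 2 and its groups did not overlap. The log2 fold change of FLG was -1.09 (SE 0.39), with an adjusted p of 0.170 by edgeR's quasi-likelihood test, and -0.98 with the correction. In the group table it stood at 0.073 and 0.043 FPKM.

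Of 21 partners and receptors of S100 proteins 19 were tested and 9 had a positive fold change, with a median of -0.03. None was called, 3 were higher and 2 lower at an unadjusted p under 0.05, against 11.3% and 13.2% of all genes. STUB1, a ubiquitin ligase that S100A2 and S100P bind, had the highest value, 0.57 (SE 0.19, adjusted p = 0.169 by edgeR's quasi-likelihood test). With the correction STUB1 was at 0.16 (SE 0.09) and was not the highest of the list. AHNAK, the giant scaffold that binds the S100A10 and annexin A2 complex, had the lowest, -0.68 (SE 0.25, adjusted p = 0.171 by the same test). Its corrected value, -0.97, was computed at a median transcript length of 1024 bases, whereas its counts and FPKM values imply 17088 bases.

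ANXA2, the partner of S100A10, stood at 2032 to 2513 FPKM with a log2 fold change of 0.14 (SE 0.15), or 0.02 with the correction. ANXA1, the partner of S100A11, was at 333, 347 and 300 FPKM in NC and at 264, 228 and 221 in si-NEAT1_2. All 3 si-NEAT1_2 libraries lay below the NC libraries, with a log2 fold change of -0.40 (SE 0.12, adjusted p = 0.169 by edgeR's quasi-likelihood test) and of -0.17 with the correction. In the group table the order of ANXA1 was the opposite, 299 FPKM in NC and 712 in si-NEAT1_2. CACYBP, the partner of S100A6, was at 0.03 (SE 0.15), MYH9, a target of S100A4, at -0.15 (SE 0.16) and EZR (ezrin), a target of S100P, at -0.06 (SE 0.12). With the correction these 3 were at 0.23, -0.19 and -0.06. The correction took 1912.5 bases for CACYBP and 4171.5 for MYH9, whereas their counts and FPKM values imply 991 and 7548 bases. Of the receptors of secreted S100 proteins, BSG (basigin) was abundant, at 346 to 516 FPKM, and differed by 0.38 (SE 0.14) without and 0.04 with the correction. TLR4, at 2.58 to 7.81 FPKM, had a log2 fold change of -0.52 (SE 0.24) without and -0.11 (SE 0.13) with the correction. AGER, the receptor RAGE, at 0.42 to 1.14 FPKM, was at 0.42 (SE 0.41) without and 0.08 (SE 0.43) with it.

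The genes whose log2 CPM followed the mean of the 7 S100 genes most closely over the 6 libraries were RPL18 (Pearson r = 0.999), AURKAIP1, AGPAT2, CYBA and VPS28, among 5641 genes whose log2 CPM averaged 5 or more. Their median transcript lengths were 782 to 1391 bases and their GC contents 59.7% to 66.8%. Of the 5641 genes 1210 had an r above 0.9. These correlations rest on 6 libraries, of which si-NEAT1_2 replicate 2 is far from the rest.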

How the data were processed

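Sequencing and quantification were done by the authors, who enriched mRNA on oligo(dT) beads and by rRNA removal, used TopHat2 for mapping and RSEM for quantification; the submitters' processing notes name fastp 0.18.0, Bowtie2 2.2.8, HISAT2, StringTie 1.3.1 and GRCh38. The deposited expected counts are not normalized and were rounded to whole numbers. The deposited FPKM values were scaled by the authors for length and library size. The group table of the authors has an expected count and an FPKM column per group; its columns of fold changes and p-values were not used. Unmapped columns of per-sample values numbered 0. Samples were grouped by their labels.

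Rows of unannotated loci (0.336% to 0.447% of counts) were left out. Genes were filtered with filterByExpr, scaled by TMM and tested with edgeR 4.0.16 (quasi-likelihood) in R 4.3.3, and the fits were checked on simulated counts. Total counts of 22798631 to 27066025 per library set the precision. The correction removed, per library, splines (5 degrees of freedom each) of GC content and log transcript length, both medians over GENCODE 29 basic coding transcripts, as offsets. Log2 CPM used a prior count of 2. Standard errors of edgeR's fits were derived from its test, as the absolute log2 fold change over the square root of the F statistic. Alternatives were RLE or no normalization, other filters (none, or 10 counts in every library), DESeq2 1.42.0, limma 3.58.1 on log2(FPKM + 1) and log2(FPKM + 0.1), a replicate block, the library code as a covariate, each term of the correction alone, and the omission of each library. Loops were located by translating coding sequences and searching an EF-hand pattern. The pattern fixed the residue at loop position 1 and limited those at positions 3, 5 and 12. Protein alignments were not run. All 10 S100 genes were named, with each tested gene of the list of related genes. So were 8 partners set by name, the highest and lowest partner and calcium sensor, and the 5 genes most like the S100 mean. The S100 genes, partner, sensor and marker lists were chosen with earlier results of these data known.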

Additional observations from a re-analysis of the deposited data

How the results depend on the processing

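None of the 7 S100 genes was called under any of the alternatives run. Of 189 values of single S100 genes under 27 alternatives, 163 had the sign of the reported value and 26 the other sign, all 26 with a correction. The corrections with 1 term, with the implied length, and with a library left out were chosen after seeing the data. The median log2 fold change of the 7 genes was 0.11 with the GC and length correction, 0.11 with the correction and the replicate block and 0.055 with the implied length, and leaving out single libraries gave 0.21 to 0.47 without and 0.027 to 0.16 with the correction. S100A6 was at -0.18, -0.18 and -0.22 in the same 3 corrected fits, S100A13 at -0.080, -0.085 and -0.13, and S100A16 at -0.0078, -0.0082 and -0.043. Leaving out single libraries put S100A6 at 0.057 to 0.37 without and at -0.23 to -0.13 with the correction. For S100A13 these ranges were 0.017 to 0.41 and -0.17 to -0.020, and for S100A16 0.21 to 0.47 and -0.021 to 0.016. With length as the only term the 3 genes were at 0.01, 0.02 and 0.13, and with GC content as the only term at 0.02, 0.14 and 0.16.

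The number of S100 genes at an unadjusted p under 0.05 was 3 in the report. It was 1 with limma on log2(FPKM + 1), 0 with the replicate block and 0 with the correction with or without the block. With each correction alone it was 1, with the implied length 1, and without single libraries 0 to 4. The library code as a covariate gave 4 (median log2 fold change 0.47). Over all 12581 genes, 1419 were higher and 1663 lower at that threshold in the report, and 1600 and 2093 with the library code. With the replicate block 593 and 856 were, with the correction 982 and 979, and with limma on log2(FPKM + 1) 1054 and 1706. Without si-NEAT1_2 replicate 1, where 4 S100 genes reached it, 1943 of 12749 genes were higher and 2381 lower. The study's methods speak of 3 pairs of cells without saying which libraries form a pair. Same-numbered libraries did not deviate together (correlations of -0.29, -0.38 and -0.02), so whether the numbers mark these pairs was not settled; the block changed no call of an S100 gene.

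Genes called higher, 0 in the report, numbered 9 with no filter, 24 with DESeq2, 1 with length alone and 2 with the implied length; genes called lower numbered 1 without normalization, 8 with no filter, 47 with DESeq2, 1 with limma on log2(FPKM + 0.1), and 3 with the correction, with length alone, with GC alone and with the implied length. Leaving out single libraries gave 0 to 43 genes higher and 0 to 292 lower, the highest counts without si-NEAT1_2 replicate 1. The cause of these changes was not tested. The group table holds no replicates, so only ratios and no calls were taken from it here. Depth limits S100A4, S100A8, S100A9 and S100P.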

Other observations

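Other EF-hand and calcium-buffering genes were described beside the S100 genes. Of 30 calcium sensors 27 were tested, 17 had a positive log2 fold change (50.8% of all genes did), and their median was 0.16, or 0.06 with the correction. None was called, and 5 were higher and 1 lower at an unadjusted p under 0.05 by edgeR's quasi-likelihood test, against 11.3% and 13.2% of all genes. CIB1, a calcium- and integrin-binding protein, had the highest value, 0.56 with an adjusted p of 0.171 by edgeR's quasi-likelihood test, and 0.18 with the correction. CALU (calumenin), a calcium-binding protein of the secretory pathway, had the lowest, -0.46 with an adjusted p of 0.169 by the same test, and -0.16 with the correction.

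Median log2 fold changes of the marker lists were 0.08 for 4 thyroid markers tested, 0.21 for 5 epithelial markers and -0.05 for 6 fibroblast markers, with none called. Of the fibroblast list, LUM had a log2 fold change of -0.40 without and 0.01 with the correction.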
